A study of Bos taurus with 6 samples.

Results

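C1QBP and a group of genes for the folding and breakdown of mitochondrial proteins were examined in blastocysts, the embryo stage at which an outer trophectoderm encloses the inner cell mass and a fluid cavity. The group was set as 10 gene symbols: C1QBP, HSPD1, HSPE1, HSPA9, DNAJA3, TRAP1, LONP1, CLPX, CLPP and PHB2. Of these, 9 were among the 12826 genes of the count table, all 9 passed the filter on low counts, and CLPP was not analysed here. C1QBP was taken up because its RNA differed between the treatments in an earlier fit of these same libraries, and the other genes were added for their function with that result known. The difference of C1QBP between treatments is therefore a description and not a test.

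The libraries were made from pools of bovine (Bos taurus) blastocysts produced in vitro from slaughterhouse material and collected at day 7. One group was cultured with beta-hydroxybutyrate (BHB), a ketone body that cells oxidise in mitochondria (n = 3 libraries), and the other was cultured without it (n = 3 libraries). No strain, sex, dose or time of exposure is given in the sources used here, and no source says whether the pools were independent batches. All p-values therefore refer to the spread among these 6 libraries, which may be technical. Polyadenylated RNA was sequenced, with 6440732 to 8176648 counts per library.

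Most mitochondrial proteins are made in the cytosol, threaded unfolded through the mitochondrial membranes and folded inside. The Hsp70 protein HSPA9 pulls them into the matrix, the chaperonin HSPD1 with its lid HSPE1 folds them, and the proteases LONP1 and ClpXP remove those that fail. C1QBP, also called p32 or gC1qR, is an acidic matrix protein needed for translation on mitochondrial ribosomes, and its loss in mice is lethal to the embryo. Its name comes from its binding of complement C1q. The oocyte supplies the embryo with mitochondria, so the blastocyst is a stage at which these systems run on inherited organelles.

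Of 8 blastocyst markers, 7 were in the table (CDX2, GATA3, KRT8, KRT18, POU5F1, NANOG and GATA6; SOX17 was not analysed here). Their summed level, in CPM (counts scaled to a fixed total after edgeR's TMM factors), ran from 10649 to 17327 in control libraries and from 8383 to 13499 with BHB, nearly all of it from the keratin genes KRT8 and KRT18; the single markers are given beside C1QBP. Of 8 cumulus and granulosa markers, only FSHR and CYP19A1 were in the table, at a sum of 19.8 to 26.8 CPM in controls and 19.99 to 24.5 CPM with BHB. The table held 1 of 6 oocyte markers (ZP3, 0.40 to 2.77 CPM over all libraries). The part of these markers in the results below was not tested. In pooled embryos, fewer cells of a type and less RNA per cell cannot be told apart.

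Each control library was treated as the partner of 1 BHB library where a comparison is said to be within pairs. The labels do not state this pairing. It is the only one of 6 possible pairings that, refitted with DESeq2, gave the p-values of the authors' deposited table (99.98% of genes within 1e-06).

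C1QBP was higher with BHB in each of the 3 pairs, and it was the only one of the 9 genes with a difference of this size. Control libraries 1 to 3 held C1QBP at 183, 161 and 339 CPM, and BHB libraries 1 to 3 at 349.6, 336 and 475 CPM. Controls 1 and 2 were low. Control 3 was as high as BHB 1 and BHB 2, so that the groups overlapped, and BHB 3 was the highest of all. The group means were 228 ± 97.3 CPM (SD, n = 3) in controls and 387 ± 76.9 CPM (SD, n = 3) with BHB. These values rest on 1212 to 3258 counts per library, for which counting error alone is 1.75% to 2.87%, while the highest library was 2.96-fold above the lowest.

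**Figure D1:**
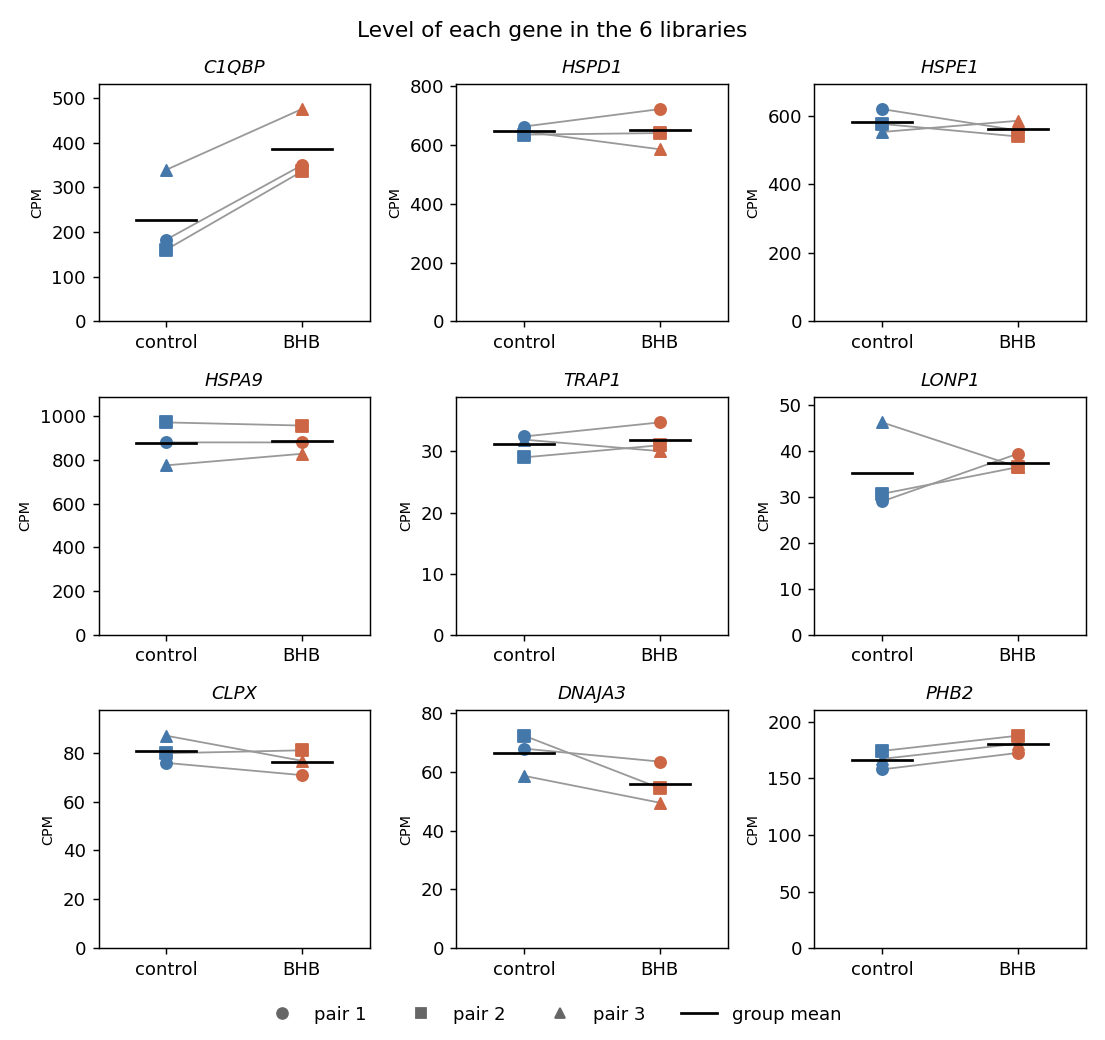
Level of each of the 9 genes in CPM on TMM-scaled library sizes (vertical axes start at 0), with 1 point per library, grey lines joining the 2 libraries of a pair and black bars at group means (n = 3 libraries a group). C1QBP is higher with BHB in all 3 pairs, from 161 to 339 CPM in controls and from 336 to 475 CPM with BHB, while the other 8 genes overlap between groups with small differences.

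Within pairs, C1QBP differed by 0.93, 1.06 and 0.49 in log2 CPM in pairs 1, 2 and 3. The difference was smallest in the pair whose 2 libraries both had the most C1QBP. Without pairing, edgeR's quasi-likelihood fit gave a log2 fold change of 0.76 (SE 0.27), a 1.70-fold difference with a 95% confidence interval of 1.11 to 2.60. Its adjusted p was 0.999 (Benjamini-Hochberg over 12732 genes), in a comparison where 0% of genes passed at 0.05 and 2.73% had an unadjusted p under 0.05. DESeq2's Wald test without pairing did not call it either (adjusted p = 1.00, where 0.0468% of genes passed).

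The call by which C1QBP was chosen came from DESeq2's Wald test within pairs, which gave a log2 fold change of 0.82 (SE 0.14) and an adjusted p of 2.7e-05. That test called 0.339% of genes, and 0.164% as higher with BHB. The edgeR fit within pairs gave a like log2 fold change of 0.82 (SE 0.12; 95% confidence interval 0.55 to 1.10), but its adjusted p was 0.0915, and 0% of genes passed. The pairing thus left the size of the difference nearly as it was and narrowed its error. The call was lost in the DESeq2 test without pair 2 (adjusted p = 0.294), and the edgeR fit within pairs reached the threshold only without pair 3 (adjusted p = 0.0498, log2 fold change 1.01).

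Some lineage markers also differed between these libraries, not all in the pattern of C1QBP. NANOG, which marks the pluripotent epiblast, was at 72.4, 60.7 and 73.4 CPM in controls, against 30.7, 33.4 and 51.2 CPM with BHB, with all BHB libraries below all controls. The DESeq2 test within pairs that called C1QBP also called NANOG (log2 fold change -0.87, adjusted p = 0.0089). KRT8, a keratin of the trophectoderm, was at 12283, 11329 and 7369 CPM in control libraries 1 to 3 and at 9804, 8217 and 5706 CPM in BHB libraries 1 to 3. KRT8 and KRT18 were lower with BHB in 3 of 3 pairs and lowest in pair 3, where C1QBP was highest. They were not called for treatment (DESeq2 within pairs, adjusted p = 0.0635 and 0.0967). The edgeR test between pairs with treatment in the model, which called 4.12% of genes, called both (adjusted p = 0.0071 and 0.017). CDX2 and GATA6 were higher with BHB in 3 of 3 pairs, GATA3 in 2 and POU5F1 in 1, and none of these 4 was called. Of all tested genes, 30.3% had the same direction in 3 of 3 pairs. The part of these markers in the difference of C1QBP was not tested.

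Of the 6 libraries, control 3 moved the value most when left out. Without control 3 the unpaired log2 fold change of C1QBP was 1.17 (SE 0.19), and without control 2 it was 0.57 (SE 0.28). Leaving out control 1 gave 0.63, BHB 1 gave 0.83, BHB 2 gave 0.86 and BHB 3 gave 0.59. The sign was positive in all 21 alternative fits, which reuse the counts by which C1QBP was chosen and so add no support. The adjusted p of the 6 unpaired fits that left out 1 library ran from 0.602 to 1.00. These 6 fits keep the partner of the library left out and so mix pair with treatment.

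**Figure D2:**
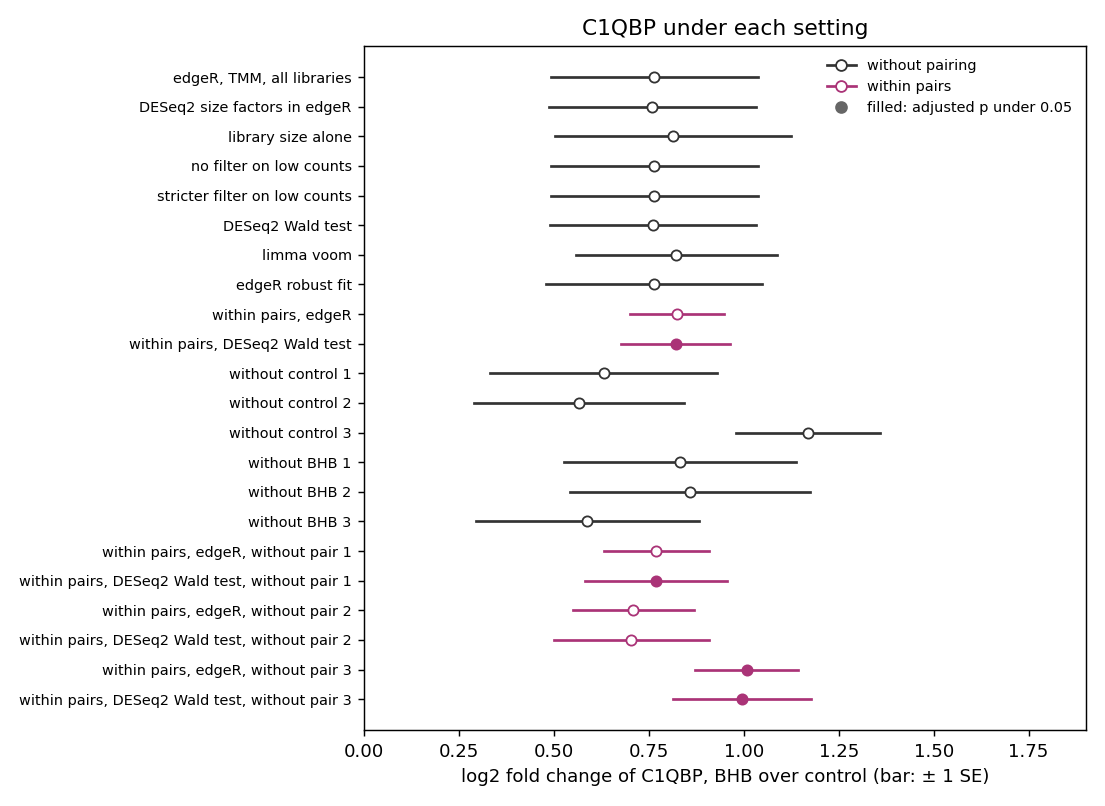
Log2 fold change of C1QBP, BHB over control, under each setting (points, with bars of 1 SE), in black without pairing and in purple within pairs, with filled points where the adjusted p over all genes was under 0.05. The value lies between 0.57 and 1.17 and reaches the threshold in 4 of the fits, all within pairs.

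C1QBP also varied between libraries of the same group, apart from treatment. Its coefficient of variation was 42.7% among controls and 19.9% among BHB libraries. Of the 2062 tested genes at 100 CPM or more, 1.75% varied more among controls (median 12.2%), and 14.7% varied more among BHB libraries (median 10.6%). Averaged over the 2 libraries of a pair, C1QBP lay 0.49 above its mean over pairs in pair 3 and 0.18 and 0.30 below it in pairs 1 and 2, on the log2 scale. The test between pairs with treatment in the model gave an adjusted p of 0.0287 for C1QBP in edgeR, which called 4.12% of genes, and of 0.00028 in DESeq2's likelihood ratio test, which called 5.48%. That test divides by the same spread within pairs on which the choice of C1QBP rested, so it is a description too. It was lost without pair 3 (adjusted p = 0.719), when only pairs 1 and 2 were compared.

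The authors' deposited table lists C1QBP with an adjusted p of 4.35e-09 and a log2 fold change of control over BHB of -0.82. The p-values of that table were given by a refit of pair and treatment together against a model with neither, so a gene can reach a small p there through differences between pairs, between treatments or both. An adjusted p under 0.05 was held by 5.04% of genes in the authors' deposited table, and C1QBP ranked 48 by p among 12826 genes. The other 8 genes had adjusted p of 0.716 to 0.996 in the authors' deposited table.

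None of the 8 chaperone, protease and prohibitin genes passed any test of treatment that was run. Their summed level was 2524, 2567 and 2363 CPM in control libraries 1 to 3 and 2538, 2526 and 2370.4 CPM in BHB libraries 1 to 3. The lowest sum of each group was that of pair 3, the pair with the most C1QBP, and the groups overlapped. In no gene of the 9 were all BHB libraries above or all below the controls, which occurred in 7.84% of tested genes. The direction was the same in 3 of 3 pairs in 3 of the 9 genes (C1QBP, PHB2 and DNAJA3), against 30.3% of all tested genes. The median log2 fold change was 0.021 over the 9 genes and 0.012 without C1QBP, beside -0.0050 over all genes tested, of which 50.9% were negative, against 3 of the 9 genes.

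HSPD1, the chaperonin that encloses unfolded proteins in a chamber, was among the steadiest genes of its level in control embryos. It was at 661, 634 and 644 CPM in control libraries 1 to 3 and at 720.5, 639 and 584 CPM in BHB libraries 1 to 3. The controls lay within the range of the BHB libraries, of which BHB 1 was the highest and BHB 3 the lowest of all 6. Its coefficient of variation was 2.16% among controls, where 98.1% of genes at 100 CPM or more varied more, and 10.6% among BHB libraries, where 50.3% did. The log2 fold change was 0.0031 (SE 0.13), and the 95% confidence interval of 0.82-fold to 1.22-fold limits how large a difference these libraries could hold. Its sign turned in 11 of 21 alternative fits, as under DESeq2's size factors (-0.0023).

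HSPE1, which closes the chamber formed by HSPD1, lies next to HSPD1 in the RefSeq gene table (ARS-UCD2.0), with 0 genes listed between them. HSPE1 was at 619, 576 and 553 CPM in controls, against 557, 539.6 and 585 CPM with BHB. The groups overlapped, with a log2 fold change of -0.056 (SE 0.12; 95% confidence interval 0.80-fold to 1.16-fold), which turned to 0.015 when counts were scaled by library size alone. The ratio of HSPD1 to HSPE1 CPM ran from 1.07 to 1.17 in controls and from 1.00 to 1.29 with BHB. Its highest and lowest values both came from BHB libraries, BHB 1 and BHB 3. Processed pseudogenes of HSPD1 and HSPE1 are common in mammals and the handling of reads with several matches is not given in the sources used here, so both levels are uncertain.

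HSPA9, also called mortalin, is the matrix Hsp70 that drives protein import and early folding. It was at 879.6, 971 and 775 CPM in control libraries and at 879, 957 and 827 CPM in BHB libraries. The libraries sorted by pair and not by treatment, with pair 2 highest and pair 3 lowest in both groups. The log2 fold change was 0.021 (SE 0.13; 95% confidence interval 0.82-fold to 1.25-fold). The test between pairs did not call HSPA9 (edgeR adjusted p = 0.324).

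DNAJA3, a J-domain cochaperone that stimulates HSPA9, was the gene with the largest difference after C1QBP, in the opposite direction. It was at 67.9, 72.3 and 58.6 CPM in controls, against 63.5, 54.4 and 49.5 CPM with BHB. It was lower with BHB within each of the 3 pairs, by -0.096, -0.41 and -0.24 in log2 CPM, although BHB 1 was above control 3. The group means were 66.2 ± 6.98 and 55.8 ± 7.09 CPM (SD, n = 3), and the log2 fold change of -0.25 (SE 0.16) did not pass in edgeR (adjusted p = 0.999; within pairs 0.670). Its value kept its sign in all 21 alternative fits, from -0.35 to -0.17, but these fits reuse the same counts.

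TRAP1, the Hsp90 of the matrix, was at 32.5, 29.0 and 31.9 CPM in controls, against 34.8, 31.0 and 30.1 CPM with BHB. The 3 values of each group covered nearly the same range, and the log2 fold change was 0.037 (SE 0.16). At 206 to 272 counts per library its counting error was 6.06% to 6.97%, close to its coefficient of variation of 6.36% over all 6 libraries. Differences of a few percent in TRAP1 were not detectable at this depth.

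**Figure D3:**
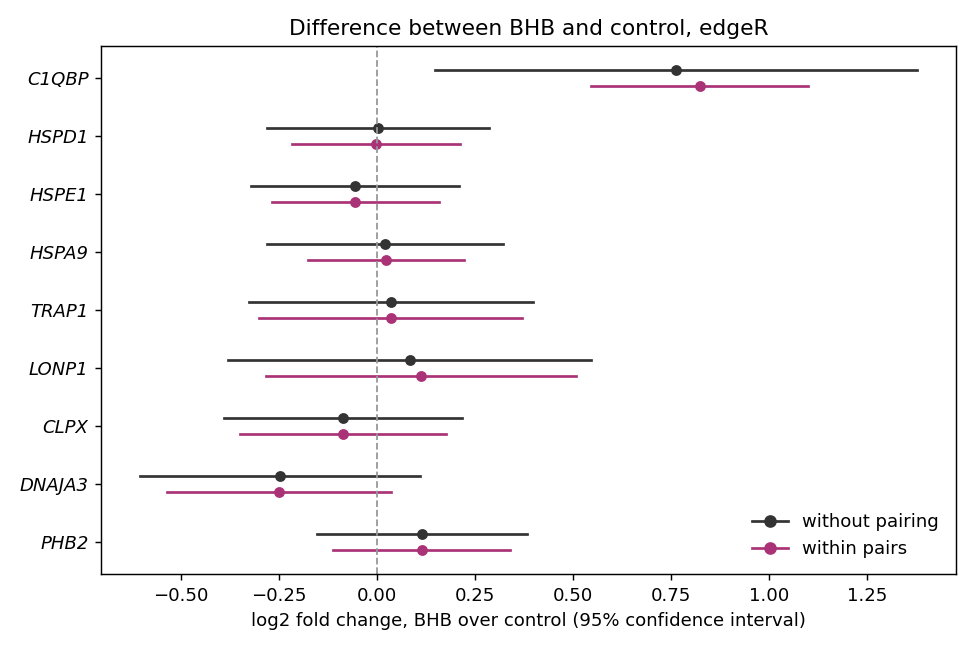
Log2 fold change, BHB over control, of each of the 9 genes (points) with its 95% confidence interval from edgeR (bars), in black without pairing and in purple within pairs, from 3 libraries a group. The 8 genes other than C1QBP lie between -0.25 and 0.12 with intervals that include 0, and the intervals of C1QBP run from 0.15 to 1.38 without pairing and from 0.55 to 1.10 within pairs.

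LONP1, a protease of the matrix that degrades damaged proteins and binds mitochondrial DNA, shared the high value of control 3. It was at 29.0, 30.6 and 46.1 CPM in controls, against 39.3, 36.4 and 36.5 CPM with BHB. Control 3 was the highest of all 6 libraries and controls 1 and 2 were the lowest. The 3 BHB libraries lay between them, with an SD of 1.67 CPM against 9.47 CPM in controls. Within pairs LONP1 was higher with BHB in pairs 1 and 2 (0.44 and 0.25 in log2 CPM) and lower in pair 3 (-0.34). Its log2 fold change was 0.084 (SE 0.21) with all libraries, -0.036 without control 1, -0.0064 without control 2 and 0.33 without control 3.

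CLPX is the unfoldase that feeds proteins to the protease CLPP, whose own gene was not analysed here. CLPX was at 75.9, 79.8 and 87.0 CPM in controls, against 70.9, 81.0 and 76.7 CPM with BHB. The groups overlapped, and the log2 fold change of -0.086 (SE 0.13; 95% confidence interval 0.76-fold to 1.16-fold) did not pass.

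PHB2, which forms a scaffold with PHB1 in the inner membrane and is thus no matrix chaperone in the strict sense, differed little between groups. It was at 158, 174 and 167 CPM in controls, against 173, 188 and 181 CPM with BHB. Within pairs it was higher with BHB by 0.13, 0.11 and 0.11 in log2 CPM, while control 2 was just above BHB 1. Counting error alone was 2.65% to 2.91% per library, so the closeness of these 3 values is no result. The log2 fold change was 0.11 (SE 0.12; adjusted p = 0.999 in edgeR and 0.811 within pairs), positive in all 21 alternative fits, which reuse the same counts. Its partner gene, listed under the older symbol PHB, was at 437 ± 41.9 CPM in controls and 413 ± 53.4 CPM in the BHB group (SD, n = 3; log2 fold change -0.079, SE 0.14), and the sign thus differed between the 2 prohibitins, neither of which passed.

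Over the 6 libraries C1QBP stood apart from the other 8 genes, as follows mostly from the large difference it was chosen for. As a measure of likeness, the log2 CPM of each gene was centred on its mean over the 6 libraries, and the root mean square difference between 2 genes was taken. It ran from 0.42 to 0.73 in the 8 comparisons of C1QBP with another gene of the group and from 0.050 to 0.35 in the 28 comparisons among the others. LONP1 was nearest to C1QBP (0.42) and DNAJA3 farthest (0.73). HSPD1 was nearer to TRAP1 (0.050, the smallest of the 36) than to its partner HSPE1 (0.12). Counting error of TRAP1 alone was 6.06% to 6.97% per library, so a distance this small is within it, and the order was not tested. HSPA9 and its cochaperone DNAJA3 differed by 0.17.

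**Figure D4:**
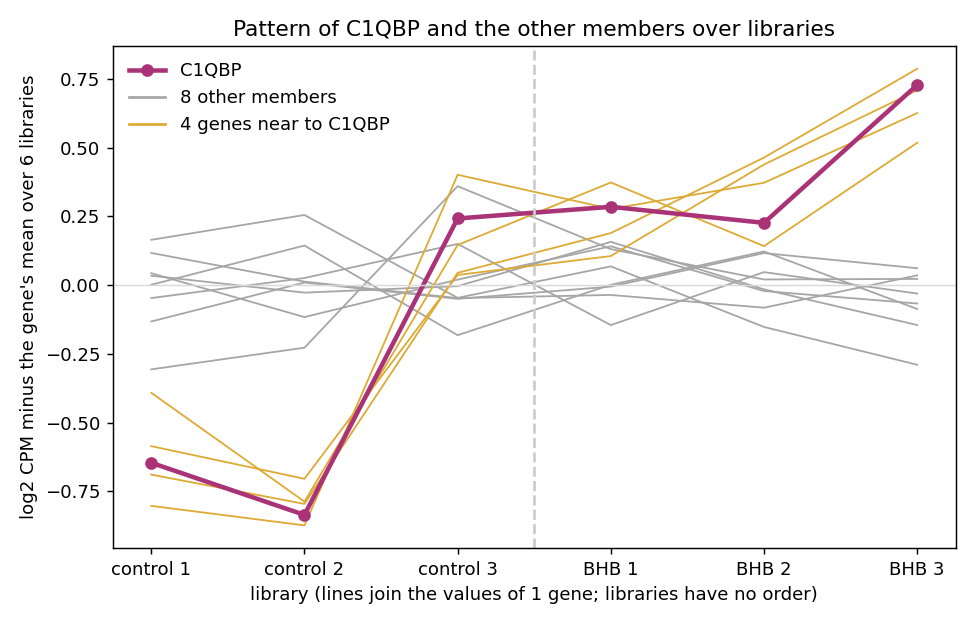
Log2 CPM of each gene minus its mean over the 6 libraries, with C1QBP in purple, the 8 other genes of the group in grey and 4 of the genes nearest to C1QBP in yellow; lines only join the values of 1 gene, and the dashed line parts control from BHB libraries. C1QBP runs from -0.84 in control 2 to 0.73 in BHB 3, with control 3 at 0.24 beside BHB 1 at 0.28 and BHB 2 at 0.23, while the other 8 genes stay between -0.31 and 0.36.

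Among 8310 other named genes whose log2 CPM averaged 3 or more, those near to C1QBP included MGARP, a mitochondrial protein that acts in the transport of the organelle (0.12), PODXL, a sialomucin of apical membranes (0.14), GAS2L1, which links actin to microtubules (0.15), and UCK2, a kinase of pyrimidine salvage (0.15). They were picked for their closeness to C1QBP over these same libraries, so their direction with BHB and their highest libraries follow from the choice. UCK2 was at 27.5, 25.3 and 42.5 CPM in controls, against 44.6, 56.2 and 67.8 CPM with BHB. MGARP was at 9.48, 9.02 and 22.2 CPM in controls, against 20.3, 21.7 and 26.0 CPM with BHB. The genes nearest to HSPD1 were the kinase gene HIPK3 (0.035), PTPA, an activator of protein phosphatase 2A (0.042), and the Mediator subunit gene MED1 (0.043). Over 6 libraries such likeness describes these libraries and names no shared control.

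Genes that work beside these proteins gave no call in edgeR without pairing or, within pairs, in edgeR or DESeq2, which gave no adjusted p for PAM16. Since 0% of all genes passed in edgeR and 0.339% in DESeq2 within pairs, the absence of calls is near the background and says little about these lists. For protein import, 21 of 21 listed genes were tested, 0 passed, and 10 were negative (median log2 fold change 0.052; range -0.33 to 0.62). That median turned to -0.035 without control 1 and to -0.040 in edgeR within pairs without pair 2, and was 0.12 with library size alone. All BHB libraries were above the controls in TIMM44, PAM16 and MIPEP and below them in PMPCA, against 7.84% of all tested genes with no overlap in either direction. PAM16, which gave the upper end of the range (0.62), had only 15 to 30 counts per library. The smallest p belonged to PMPCA, a subunit of the peptidase that removes import signals, at 72.6 ± 7.00 CPM in controls and 57.6 ± 6.50 CPM in the BHB group (log2 fold change -0.33, SE 0.15). TOMM40, the channel of the outer membrane, followed at 44.0 ± 11.9 and 60.5 ± 13.3 CPM (log2 fold change 0.46, SE 0.23), higher with BHB in 2 of 3 pairs. For PMPCB, the other subunit of that peptidase, the fit gave -0.11 (SE 0.14).

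Of 8 genes listed as matrix cochaperones and peptidases, 7 were negative, beside 50.9% of all genes tested, and 0 passed. Their median was -0.071, which turned to 0.0032 without BHB 3. Some of the 7 were near 0, as PPIF (-0.0038) and GRPEL2 (-0.018). HSCB, a cochaperone of HSPA9 in the transfer of iron-sulfur clusters, was at 33.3 ± 1.15 CPM in controls and 28.6 ± 2.76 CPM in the BHB group (log2 fold change -0.22, SE 0.16). GRPEL1, the nucleotide exchange factor of HSPA9, was at 88.2 ± 6.37 and 94.3 ± 10.3 CPM (0.097, SE 0.14). The genes of HSPA9, its cochaperone DNAJA3 and its exchange factor GRPEL1 thus had log2 fold changes of 0.021, -0.25 and 0.097, of which none passed.

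Among 11 genes for quality control in the inner membrane and the space outside it, 9 were negative, beside 50.9% of all genes tested. Of these 11 genes 0 passed (median -0.081, which was -0.0014 without control 2). The positive ones were AFG3L2, a subunit of a protease that faces the matrix, at 38.4 ± 7.80 CPM in controls and 51.5 ± 7.71 CPM in the BHB group (log2 fold change 0.42, SE 0.20), and the prohibitin relative STOML2, at 92.4 ± 1.45 and 102 ± 2.24 CPM (0.14, SE 0.12). AFG3L2 was higher with BHB in 3 of 3 pairs. SPG7, which can assemble with AFG3L2, was lower in 3 of 3 pairs (log2 fold change -0.14, SE 0.19). Of the 11 genes, 2 were higher and 2 lower in 3 of 3 pairs, near the 30.3% of all tested genes with the same direction.

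Of 7 regulators that switch on matrix chaperones under stress, 5 were tested and 0 passed; ATF5 and CEBPB were not analysed here. ATF4 was at 483 ± 108 CPM in controls and 427 ± 50.03 CPM in the BHB group (log2 fold change -0.18, SE 0.18), and EIF2AK1, a kinase upstream of it, at 58.2 ± 3.24 and 68.3 ± 8.91 CPM (0.23, SE 0.15). DDIT3, the stress factor CHOP, was at 25.7 ± 3.85 and 26.0 ± 2.30 CPM, and HSF1 at 17.9 ± 7.07 and 21.6 ± 5.99 CPM.

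C1QBP acts with mitochondrial ribosomes, and of 22 genes for the RNA granule and ribosome assembly of the organelle 20 were tested. None passed, and 7 were negative and 13 positive (median 0.020, range -0.30 to 0.36), beside 50.9% negative over all genes tested. RPUSD3, a pseudouridine synthase family member of the granule, was at 48.7 ± 5.19 CPM in controls and 39.4 ± 5.67 CPM in the BHB group (log2 fold change -0.30, SE 0.17). ERAL1, which assists assembly of the small subunit and is removed by ClpXP, was at 42.5 ± 2.81 and 35.4 ± 1.58 CPM (-0.26, SE 0.15). All BHB libraries were below the controls in ERAL1 and above them in TFB1M, and the groups of the other genes of this list overlapped. Over all tested genes 7.84% had groups that did not overlap, so this count is near the background. LRPPRC and SLIRP, which together stabilise mitochondrial messenger RNA, had log2 fold changes of -0.017 (SE 0.12) and -0.050 (SE 0.21), and TFAM, which packages mitochondrial DNA, of 0.026 (SE 0.15). The 3 chains of complement C1q, the ligand that named C1QBP, were not analysed here.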

How the data were processed

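The authors deposited a table of raw, whole-number counts per gene for 6 libraries. A second deposited table holds their own comparison: the mean normalized count as a signal, the log2 fold change and its error, a score (the test statistic) and the p-value before and after adjustment. STAR, featureCounts and DESeq2 are named in the submitters' processing notes, without versions. The genome build, the annotation and the strand setting were not given in the sources used here. Hence no coordinates are printed.

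The 10 genes, the lists of related genes and the naming rule were chosen with earlier results of these data known. Samples were grouped by the treatment in their labels. Numbers 1 to 3 follow the order of deposit. Counts were normalized with TMM, filterByExpr left 12732 genes and removed 94, and BHB was compared with control by edgeR 4.0.16's quasi-likelihood F test in R 4.3.3 with Benjamini-Hochberg adjustment at 0.05 over all genes. The standard error is the fold change divided by the root of F. DESeq2 1.42.0 (on all 12826 genes) and limma 3.58.1 (voom) were alternatives, as were fits with the pair as a block. The smallest total of any gene was 38 counts. Deviations from group means correlated over genes at 0.46, 0.32 and 0.33 in the 3 pairs taken from the authors' p-values, and at -0.30 to -0.004 otherwise. Log2 CPM used a prior count of 2. The code was tested on simulated data. Counting errors cover counting alone, since reads carry no molecular identifiers. Named besides the 10 genes were the 2 genes with the smallest p of each list, where none passed, 4 of the 5 genes nearest to C1QBP (the other and 1 marker list are not reported here) and the 3 nearest to HSPD1; PMPCB, TIMM44, PAM16, MIPEP, PHB, SPG7, DDIT3, HSF1, LRPPRC, SLIRP, TFAM and TFB1M were added after their values were seen. DELE1 and PHB1 were matched by the older symbols KIAA0141 and PHB.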

Additional observations from a re-analysis of the deposited data

How the results depend on the processing

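No gene passed the unpaired edgeR test. With the replicate block 0 genes passed in edgeR and 35 in DESeq2's Wald test, which called 6 without pairing. Leaving out 1 library gave 0 to 1 genes. Leaving out pair 1, 2 or 3 gave 4, 16 and 4 in edgeR and 13, 12 and 15 in DESeq2, a fit chosen after the data were seen. With the replicate block C1QBP was called in DESeq2, as it was without pair 1 (adjusted p = 0.0304) or pair 3 (0.00027), and no other of the 9 genes was called in any fit. Between pairs 524 genes were called, against 63 without pair 1 and 737 without pair 2.

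The median over the 9 genes moved from 0.021 to 0.091 with library size alone, to 0.078 in edgeR and 0.065 in DESeq2 with the block and without pair 3, and ran from -0.028 to 0.072 without 1 library. The median of the import genes (0.052) was 0.12 with library size alone, -0.035 without control 1, and -0.040 in edgeR and -0.045 in DESeq2 with the block and without pair 2. That of the inner membrane genes (-0.081) was -0.011 with library size alone and -0.0014 without control 2. Signs turned where values were near 0. HSPD1 was at -0.0023 under DESeq2 size factors, -0.0017 in DESeq2's Wald test, -0.0018 in voom, and -0.0020 and -0.0064 with the edgeR and DESeq2 blocks. Without pair 1 it was at -0.065 and -0.069 and without pair 2 at -0.0076 and -0.013 in those 2 tools, and without 1 library it ran from -0.080 to 0.072. HSPE1 was at 0.015 with library size alone. HSPA9 ran from -0.060 to 0.10 without 1 library and was at -0.00072 and -0.013 without pair 3. TRAP1 ran from -0.028 to 0.078 without 1 library and was at -0.00037 in DESeq2 without pair 1. LONP1 ran from -0.036 to 0.33 without 1 library and was at -0.050 and -0.051 without pair 1. The cause of these changes was not tested.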
